A study of Homo sapiens with 21 samples.

Results

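The 10 genes described here encode the enzymes that make serine from glycolysis and those that carry its carbon through the folate cycle: PHGDH, PSAT1, PSPH, SHMT1, SHMT2, MTHFD1, MTHFD2, MTHFD1L, MTHFD2L and ALDH1L2. They were taken by gene name from a count table of 58233 genes, and all 10 were found and passed the filter on low counts in every comparison. The table covers 7 clones of the established cell line Panc-1, from a human pancreatic duct tumour, with 3 libraries per clone. Clones ATUX8H and ATUX9D came from ATUX selection, clones SMAP8D, SMAP9C and SMAP6G from SMAP selection, and clones Sor6G and Sor9H from selection with the multikinase inhibitor Sorafenib. Cultures had been brought stepwise to growth in 8 µM of the drug over 4 months and were then cloned by dilution. The title asks how lasting exposure alters expression, and the design text lists SMAP, ATUX and Sorafenib under activators of PP2A, a serine/threonine phosphatase. The protocol speaks of SMAP2 where the sample labels say SMAP. Each clone descends from 1 colony and was picked with the help of qRT-PCR, clones of a drug may share a culture of origin, and parental Panc-1 without drug was not analysed here.

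Serine synthesis branches off glycolysis at 3-phosphoglycerate. PHGDH oxidises it, PSAT1 transfers an amino group and PSPH removes the phosphate. The serine hydroxymethyltransferases SHMT1 in the cytosol and SHMT2 in mitochondria then move the side-chain carbon of serine onto tetrahydrofolate. In mitochondria MTHFD2 or MTHFD2L oxidises this carbon to the formyl level, MTHFD1L releases it as formate, and ALDH1L2 instead burns it to carbon dioxide with gain of NADPH. MTHFD1, a single cytosolic protein with 3 activities, takes the formate up again for purine and thymidylate synthesis. PHGDH, PSAT1, SHMT2, MTHFD2 and ALDH1L2 are among the known targets of ATF4, a transcription factor of the amino acid response. This list may be incomplete, and a gene left out of it may be a target as well. The named genes are also those called lower in the ATUX and SMAP clones than in the Sorafenib clones. The list was written with earlier results of these data known, so this match carries no weight. PSPH and MTHFD1L, which it leaves out, were not called against Sorafenib. Whether target status separates called from uncalled genes was not tested.

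Promoters are shown because several of the genes moved together between the drugs. RefSeq (GRCh38.p14) gave a promoter entry for 7 of the 10 genes, and PSPH, SHMT2 and ALDH1L2 had none in the table. The 250 bases before the start are printed for 3 genes that were lower in the ATUX and SMAP clones than in the Sorafenib clones (PHGDH, PSAT1 and MTHFD2), for the 1 that was higher (MTHFD1), and for MTHFD1L, which was not called. Capitals mark matches to the C/EBP-ATF element TGATGNAA, the E-box CACGTG and the CCAAT box, searched on both strands. The RefSeq starts of PHGDH, MTHFD2, MTHFD1 and MTHFD1L lie inside the deposited gene spans. MTHFD1L had 4 entries, of which the first in the table is printed.
PHGDH, chr1:119711684-119711933, plus strand: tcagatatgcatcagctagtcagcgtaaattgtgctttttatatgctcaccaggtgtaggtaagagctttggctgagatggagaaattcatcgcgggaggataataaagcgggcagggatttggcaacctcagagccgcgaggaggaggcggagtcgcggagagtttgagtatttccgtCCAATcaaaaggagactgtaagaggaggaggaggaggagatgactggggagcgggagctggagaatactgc
PSAT1, chr9:78296875-78297124, plus strand: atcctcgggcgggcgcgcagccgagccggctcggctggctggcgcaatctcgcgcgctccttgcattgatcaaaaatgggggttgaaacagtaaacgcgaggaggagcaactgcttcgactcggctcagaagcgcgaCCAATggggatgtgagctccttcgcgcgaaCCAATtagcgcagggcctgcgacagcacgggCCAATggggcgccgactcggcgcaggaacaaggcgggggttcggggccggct
MTHFD2, chr2:74198365-74198614, plus strand: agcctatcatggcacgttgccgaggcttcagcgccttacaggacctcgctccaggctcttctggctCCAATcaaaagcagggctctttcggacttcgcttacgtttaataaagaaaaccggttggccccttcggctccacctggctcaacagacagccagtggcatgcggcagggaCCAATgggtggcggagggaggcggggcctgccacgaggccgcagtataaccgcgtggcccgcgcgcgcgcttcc
MTHFD1, chr14:64388103-64388352, plus strand: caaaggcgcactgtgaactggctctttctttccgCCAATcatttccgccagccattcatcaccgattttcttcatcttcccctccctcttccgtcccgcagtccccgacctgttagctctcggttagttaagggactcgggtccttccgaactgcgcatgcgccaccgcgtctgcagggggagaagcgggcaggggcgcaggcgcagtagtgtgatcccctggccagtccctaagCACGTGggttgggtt
MTHFD1L, chr6:150866236-150866485, plus strand: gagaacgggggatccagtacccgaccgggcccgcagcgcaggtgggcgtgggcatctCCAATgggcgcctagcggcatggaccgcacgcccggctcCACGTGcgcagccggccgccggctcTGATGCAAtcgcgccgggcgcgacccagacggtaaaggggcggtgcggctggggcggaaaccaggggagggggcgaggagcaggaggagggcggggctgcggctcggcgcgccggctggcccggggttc

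Of these 5 stretches, only that of MTHFD1L held the C/EBP-ATF element, 129 bases before the start, and it held an E-box 154 bases before the start as well. Of its 3 other entries, 1 held both motifs, 90 and 115 bases before its own start, and the others held neither. The element occurred in 3.144% of 35116 promoters of the same length. The E-box, found in 6.345% of promoters, also lay 15 bases before the start of MTHFD1. CCAAT boxes, present in 32.01% of promoters, numbered 3 in PSAT1, 2 in MTHFD2 and 1 each in PHGDH, MTHFD1 and MTHFD1L. No match overlapped another. These windows say nothing of elements elsewhere in the genes.

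Total counts ran from 21022621 to 27691256 per library (median 23026429), of which 3.19 to 5.22% were of mitochondrial genes. That share was 3.19 to 4.24% in the ATUX and SMAP libraries and 4.54 to 5.22% in 5 of the 6 Sorafenib libraries, with the other at 3.58%, and its part in the results was not tested. Levels are CPM on TMM-scaled library sizes. Drug means ± SD are taken over clone means (n = 2 for ATUX, 3 for SMAP, 2 for Sorafenib) and clone means ± SD over 3 libraries. A gene was called at an edgeR adjusted p below 0.05 (Benjamini-Hochberg over all genes tested), and log2 fold changes are given ± SE. The third libraries of both ATUX clones stood apart from the first pair: in ATUX8H and ATUX9D they had 1.87 and 1.93 times the PHGDH level of the other libraries' mean, 1.71 and 1.51 times that of PSAT1 and 2.56 and 2.37 times that of ALDH1L2. They were also below both other libraries in PSPH and SHMT1. Comparisons with ATUX are therefore also given without them. All 8 ductal markers exceeded 1 CPM in at least 1 library of each drug group, although CDH1 averaged 0.715 ± 0.78 CPM over the Sorafenib clones. Their levels summed per library to 7150 to 13340 CPM under ATUX, 1492 to 3261 CPM under SMAP and 3484 to 5175 CPM under Sorafenib.

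Within a drug group the enzymes spanned a wide range of levels. Per kilobase of gene model (RPKM, from the deposited lengths), the highest mean in the ATUX clones was that of MTHFD2 at 53.7, followed by PSAT1 at 39.2 and PSPH at 24.1. In the SMAP clones PSAT1 was at 47.5 RPKM, MTHFD2 at 39.4 and MTHFD1L at 20.4. In the Sorafenib clones PSAT1 stood at 207.4 RPKM, MTHFD2 at 99.1 and PHGDH at 63.98. This order between genes depends on the deposited lengths (2188 bases for PSAT1 and 9377 for MTHFD1), which may differ from the transcripts expressed. In CPM, MTHFD1 (146.4) stood above PSAT1 (103.8) in the SMAP clones. PHGDH averaged 4.75 RPKM with ATUX and 4.68 with SMAP, below both later enzymes of its own pathway. ALDH1L2 was the lowest of the 10 with ATUX (0.572 RPKM) and with SMAP (0.147), against 18.8 with Sorafenib, where SHMT1 (1.62) and MTHFD2L (1.03) were lowest. Within ATUX8H, however, MTHFD2L was lower (0.663 RPKM, against 0.986 for ALDH1L2), while ALDH1L2 was at 0.159 RPKM in ATUX9D. The span between the highest and lowest clone mean in CPM was 273.3 times for ALDH1L2, 41.4 for PHGDH and 8.66 for PSAT1, and between 1.56 (MTHFD1L) and 3.26 (MTHFD2) for the other 7.

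**Figure D1:**
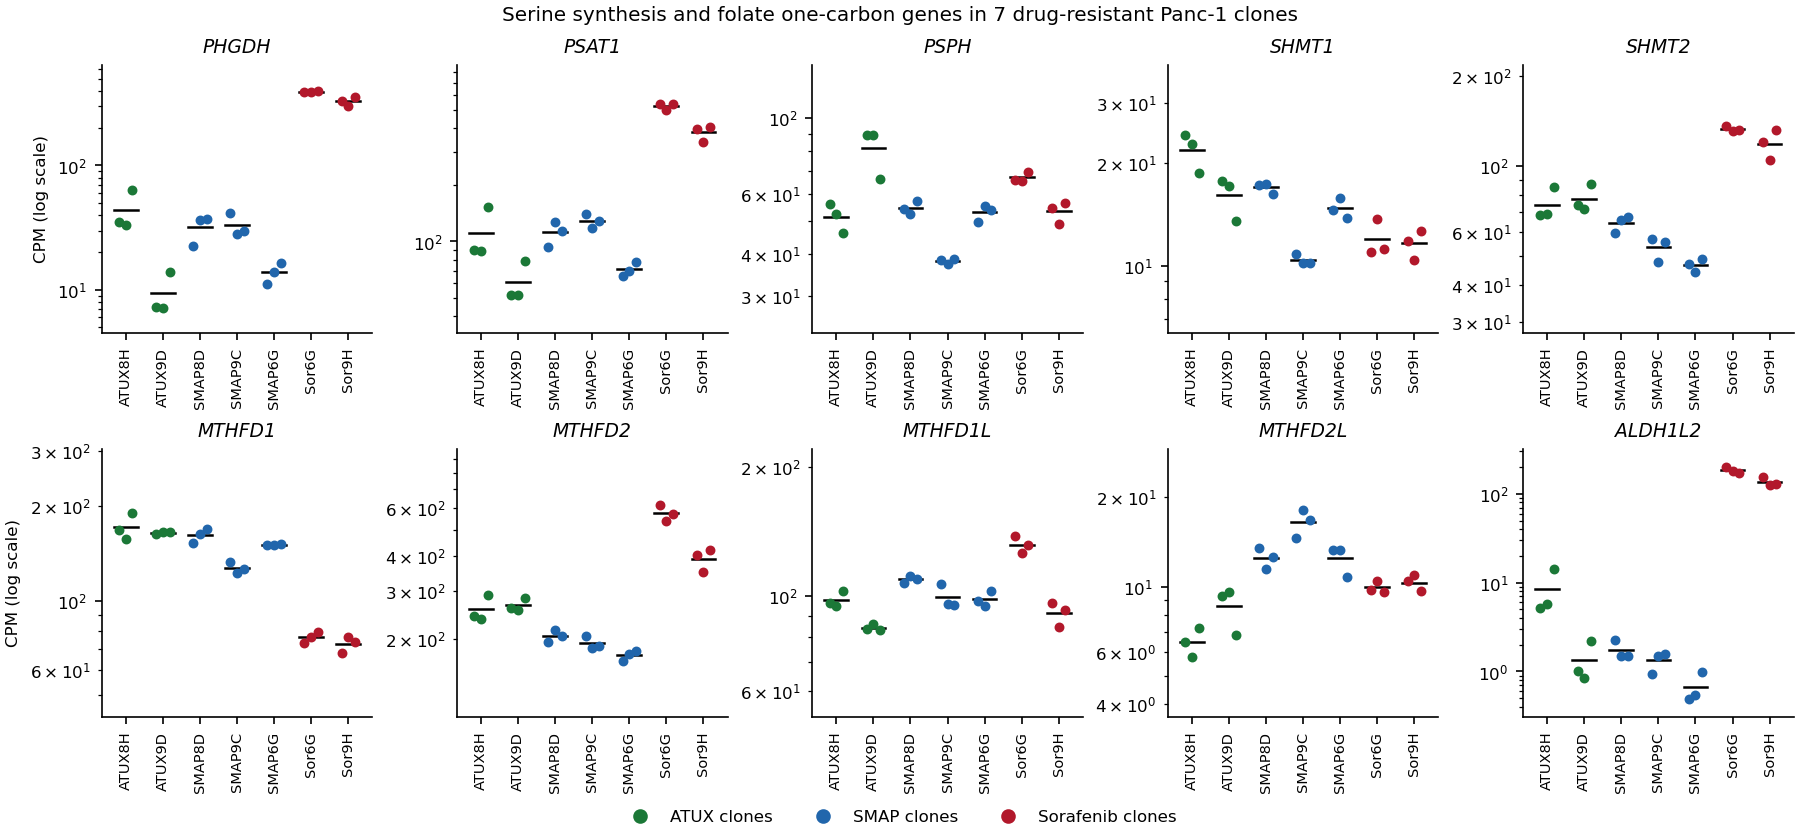
Level of each of the 10 genes in CPM (log axis, with its own scale per panel) in the 3 libraries (points) and their mean (bar) for 7 clones. PHGDH, PSAT1 and ALDH1L2 lie far lower in the ATUX and SMAP clones than in the Sorafenib clones (PHGDH 7.17 to 63.7 CPM, 11.1 to 41.2 CPM and 299.6 to 399.5 CPM), and MTHFD1 lies higher.

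The first enzymes of serine synthesis were much lower under ATUX and under SMAP than under Sorafenib, and the last was not called. PHGDH (ENSG00000092621, GRCh38 chromosome 1, 119659798 to 119744215, plus strand) had a lowest, median and highest library of 7.17, 23.6 and 63.7 CPM under ATUX and of 11.1, 28.3 and 41.2 CPM under SMAP, against 299.6, 370.6 and 399.5 CPM under Sorafenib. No ATUX or SMAP library reached the lowest Sorafenib library. The fold change was -3.76 ± 0.78 log2 for ATUX against Sorafenib (13.6-fold lower, edgeR adjusted p = 0.0179) and -3.79 ± 0.66 log2 for SMAP against Sorafenib (13.8-fold lower, edgeR adjusted p = 0.00746). These 2 comparisons share the Sorafenib clones. The ATUX call was lost without the filter (edgeR adjusted p = 0.088), without Sor6G (0.0632) or without Sor9H (0.0662), with a range of 3.31e-08 to 0.088 over 13 alternatives. Without the third ATUX libraries it was -4.12 log2 (edgeR adjusted p = 0.0142).

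PSAT1 (ENSG00000135069, GRCh38 chromosome 9, 78297143 to 78330093, plus strand) showed the same order on a higher level. Its lowest, median and highest libraries were at 51.99, 83.8 and 153.0 CPM under ATUX and at 65.8, 114.2 and 139.3 CPM under SMAP, against 338.3, 454.7 and 541.6 CPM under Sorafenib. No ATUX or SMAP library reached a Sorafenib library, while those of ATUX and SMAP overlapped. It was 5.31-fold lower for ATUX against Sorafenib (log2 -2.41 ± 0.39, edgeR adjusted p = 0.00904, and -2.68 log2 without the third ATUX libraries) and 4.43-fold lower for SMAP against Sorafenib (log2 -2.15 ± 0.34, edgeR adjusted p = 0.00537). Both PSAT1 calls held under all 13 alternatives.

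PSPH (ENSG00000146733, GRCh38 chromosome 7, 56011051 to 56051604, minus strand), the phosphatase that completes the pathway, averaged 66.5 ± 21.4 CPM under ATUX, 48.5 ± 9.03 CPM under SMAP and 60.1 ± 9.77 CPM under Sorafenib. The ranges of its libraries overlapped between all 3 drugs. Its difference was 0.17 log2 for ATUX against Sorafenib (95% interval -0.51 to 0.84, edgeR adjusted p = 0.688) and -0.32 log2 for SMAP against Sorafenib (-0.93 to 0.29, edgeR adjusted p = 0.365). Without the third ATUX libraries PSPH was at 0.26 log2 for ATUX against Sorafenib (edgeR adjusted p = 0.527). The pseudogene PSPHP1 had 82 to 248 counts per library, 11.1% of the PSPH counts, and how reads with several matches were counted is not given in the sources used here.

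Mitochondrial folate enzymes split into a lower set and a set that was not called. SHMT2 (ENSG00000182199, GRCh38 chromosome 12, 57229327 to 57234935, plus strand) had a lowest, median and highest library of 68.4, 72.9 and 87.3 CPM under ATUX and 44.1, 55.7 and 67.6 CPM under SMAP, against 104.6, 131.3 and 135.8 CPM under Sorafenib. The 3 drugs formed separate ranges, with ATUX between the other two. SHMT2 was 1.65-fold lower for ATUX against Sorafenib (log2 -0.72 ± 0.17, edgeR adjusted p = 0.0256) and 2.32-fold lower for SMAP against Sorafenib (log2 -1.21 ± 0.15, edgeR adjusted p = 0.0028). Leaving out any one of ATUX8H, ATUX9D, Sor6G and Sor9H ended the ATUX call (edgeR adjusted p = 0.0711, 0.0715, 0.0995 and 0.072, range over 13 alternatives 2.35e-06 to 0.0995), while the SMAP call held under all 13. Without the third ATUX libraries SHMT2 was at -0.82 log2 for ATUX against Sorafenib (edgeR adjusted p = 0.018).

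MTHFD2 (ENSG00000065911, GRCh38 chromosome 2, 74198562 to 74217565, plus strand), the mitochondrial dehydrogenase and cyclohydrolase, likewise had libraries at 236.2, 257.9 and 290.8 CPM (lowest, median and highest) with ATUX and at 167.5, 189.8 and 216.4 CPM under SMAP, against 350.6, 479.3 and 611.2 CPM under Sorafenib. Again no range met another. The fold change was -0.88 ± 0.20 log2 for ATUX against Sorafenib (adjusted p in edgeR of 0.0215) and -1.35 ± 0.18 log2 for SMAP against Sorafenib (edgeR adjusted p = 0.00296). The ATUX call ended without ATUX8H, ATUX9D or Sor6G (edgeR adjusted p = 0.0617, 0.0665 and 0.0646, range over 13 alternatives 3.77e-07 to 0.0665), and its size without Sor6G was -0.59 log2. Without the third ATUX libraries it was -0.95 log2 (edgeR adjusted p = 0.0175).

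ALDH1L2 (ENSG00000136010, GRCh38 chromosome 12, 105019784 to 105084577, minus strand), the mitochondrial 10-formyltetrahydrofolate dehydrogenase, had the widest differences of the 10. Its lowest, median and highest libraries were at 0.848, 3.72 and 14.1 CPM under ATUX and at 0.491, 1.48 and 2.25 CPM under SMAP, against 124.2, 163.8 and 199.3 CPM under Sorafenib. Every Sorafenib library lay above every other library. The gene was 33.3-fold lower for ATUX against Sorafenib (log2 -5.06 ± 0.89, edgeR adjusted p = 0.0114) and 128.1-fold lower for SMAP against Sorafenib (log2 -7.00 ± 0.82, edgeR adjusted p = 0.00246). Without the filter the ATUX call was lost (edgeR adjusted p = 0.06, range over 13 alternatives 2.25e-08 to 0.06), and without the third ATUX libraries the difference was -5.64 log2 (edgeR adjusted p = 0.00771). In the library with its lowest count ALDH1L2 had 11 counts. The opposite-strand neighbour C12orf45, which overlaps it, had 249 to 541 counts per library, and the strand setting of the counting is not given in the sources used here.

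MTHFD1L and MTHFD2L, the other 2 mitochondrial enzymes, were not called between ATUX or SMAP and Sorafenib. MTHFD1L (ENSG00000120254, GRCh38 chromosome 6, 150865549 to 151101887, plus strand) averaged 91.1 ± 9.57 CPM under ATUX, 102.3 ± 6.18 CPM under SMAP and 111.5 ± 28.7 CPM under Sorafenib, in overlapping ranges. Its difference was -0.28 log2 for ATUX against Sorafenib (95% interval -0.74 to 0.17) and -0.14 log2 for SMAP against Sorafenib (-0.55 to 0.27). MTHFD2L (ENSG00000163738, GRCh38 chromosome 4, 74114174 to 74303099, plus strand) averaged 7.54 ± 1.45 CPM under ATUX, 13.8 ± 2.33 CPM under SMAP and 10.1 ± 0.273 CPM under Sorafenib. All ATUX libraries lay below all Sorafenib libraries (highest 9.558 against lowest 9.576 CPM), but the clone sums gave -0.40 log2 with an edgeR adjusted p = 0.231. For SMAP against Sorafenib MTHFD2L differed by 0.44 log2 (95% interval -0.06 to 0.95, edgeR adjusted p = 0.148). For ATUX against Sorafenib without the third ATUX libraries MTHFD1L was at -0.30 log2 and MTHFD2L at -0.37 log2, neither called.

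Of the cytosolic enzymes, MTHFD1 ran opposite to SHMT2, MTHFD2 and ALDH1L2. MTHFD1 (ENSG00000100714, GRCh38 chromosome 14, 64388031 to 64463457, plus strand) had a lowest, median and highest library of 156.9, 165.6 and 190.2 CPM under ATUX and 122.4, 150.1 and 168.7 CPM under SMAP, against 68.1, 75.2 and 79.7 CPM under Sorafenib. All ATUX and SMAP libraries stood above all Sorafenib libraries. It was 2.27-fold higher for ATUX against Sorafenib (log2 1.18 ± 0.14, edgeR adjusted p = 0.00422, and 1.14 log2 without the third ATUX libraries) and 1.94-fold higher for SMAP against Sorafenib (log2 0.96 ± 0.13, edgeR adjusted p = 0.00352). Both MTHFD1 calls held under all 13 alternatives. ZBTB25, on the opposite strand and overlapping MTHFD1, had 281 to 683 counts per library.

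SHMT1 (ENSG00000176974, GRCh38 chromosome 17, 18327860 to 18363563, minus strand), the cytosolic counterpart of SHMT2, averaged 19.0 ± 4.04 CPM under ATUX, 14.02 ± 3.33 CPM under SMAP and 11.8 ± 0.241 CPM under Sorafenib. Its libraries overlapped between the drugs. The difference was 0.71 log2 for ATUX against Sorafenib (95% interval 0.08 to 1.34, edgeR adjusted p = 0.0927) and 0.25 log2 for SMAP against Sorafenib (-0.33 to 0.82, edgeR adjusted p = 0.466). Without the third ATUX libraries SHMT1 was at 0.80 log2 for ATUX against Sorafenib (edgeR adjusted p = 0.0656). SMCR8, which overlaps SHMT1 on the opposite strand, had 1222 to 3665 counts per library, where SHMT1 had as few as 210.

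Counted together, 1 of the 10 genes was higher (MTHFD1) and 5 were lower (PHGDH, PSAT1, SHMT2, MTHFD2 and ALDH1L2) in ATUX than in Sorafenib clones. Of all 18613 genes tested, 13.3% were higher and 12.5% lower in that comparison. In SMAP against Sorafenib clones 1 was higher (MTHFD1) and 5 were lower (PHGDH, PSAT1, SHMT2, MTHFD2 and ALDH1L2), where 16.8% of all genes were higher and 17.7% lower. The median log2 fold change of the 10 genes was -0.56 for ATUX against Sorafenib and -0.77 for SMAP against Sorafenib, and that of all genes was 0.01 in each. Since transcripts were measured in whole cultures, less RNA per cell and fewer cells with the RNA cannot be told apart.

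**Figure D2:**
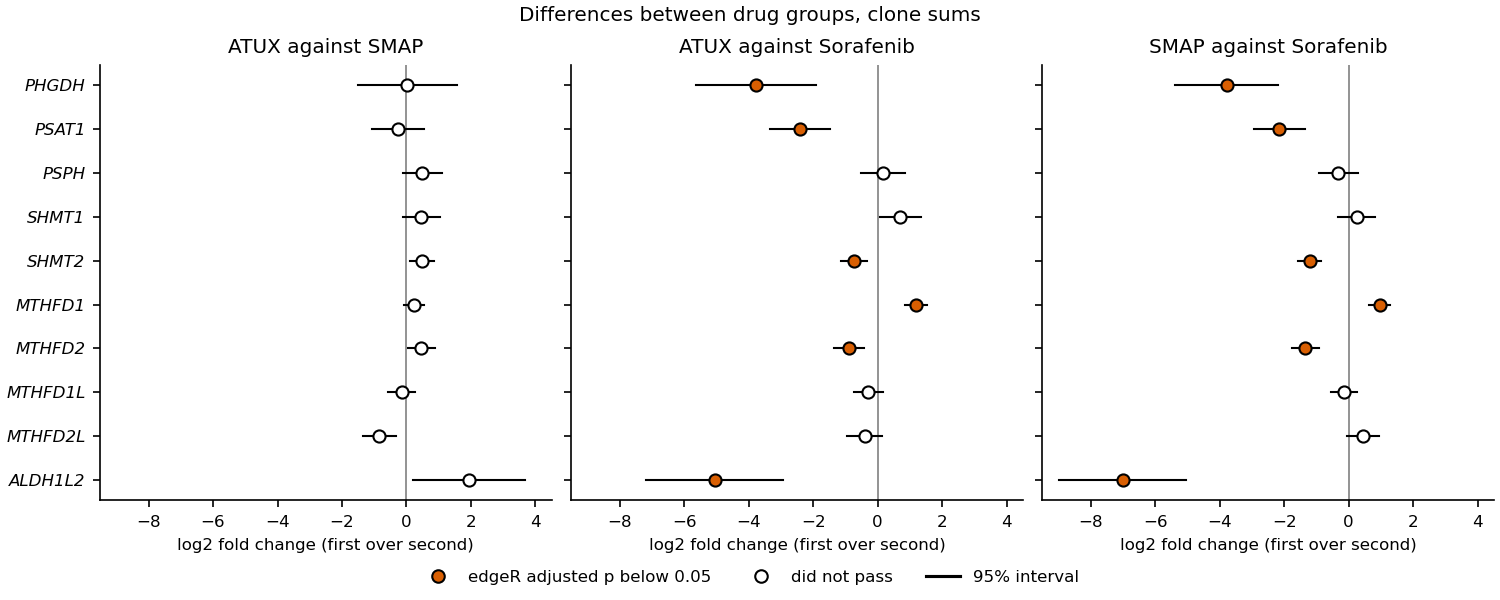
Log2 fold change (x axis) with its 95% interval for the 10 genes in the 3 drug comparisons, from sums of the libraries of each clone. Filled points passed the edgeR threshold; these are MTHFD1 on the right and PHGDH, PSAT1, SHMT2, MTHFD2 and ALDH1L2 on the left in both comparisons with Sorafenib, and no point in ATUX against SMAP.

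Between the ATUX and SMAP clones, both at 8 µM, none of the 10 genes was called. In ATUX against SMAP clones 0 of 10 passed in edgeR, where 5.27% of all genes were higher and 5.06% lower. At an unadjusted p under 0.05 in edgeR there were 4, of which SHMT2, MTHFD2 and ALDH1L2 were higher with ATUX and MTHFD2L was lower. The share of all genes at that unadjusted threshold was not taken, so this count has no background beside it. DESeq2 called 1, MTHFD2L (-0.86 log2, DESeq2 adjusted p = 0.00351), where it called 3473 of 19309 genes. MTHFD2L had a lowest, median and highest library of 5.80, 7.06 and 9.56 CPM under ATUX and of 10.8, 13.3 and 18.2 CPM under SMAP. These libraries did not overlap, and the difference was -0.85 ± 0.22 log2 in edgeR (95% interval -1.36 to -0.34, adjusted p = 0.0534, range over 13 alternatives 3.4e-06 to 0.165). All ATUX libraries were also above all SMAP libraries for SHMT2 (0.49 log2, 95% interval 0.12 to 0.86, edgeR adjusted p = 0.0932) and MTHFD2 (0.47 log2, 0.05 to 0.89, edgeR adjusted p = 0.139).

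For the serine synthesis genes the interval between ATUX and SMAP was wide. It ran from -1.50 to 1.56 log2 for PHGDH, around 0.03, from -1.08 to 0.55 for PSAT1, around -0.26, and from -0.12 to 1.10 for PSPH, around 0.49. The PHGDH value rested on which ATUX clone was kept, at -1.48 log2 without ATUX8H and 0.74 log2 without ATUX9D (edgeR adjusted p = 0.16 and 0.396, range over 13 alternatives 0.16 to 1.0). PSAT1 likewise lay at -0.77 log2 without ATUX8H and 0.10 log2 without ATUX9D. ALDH1L2 was at 1.94 ± 0.72 log2 (95% interval 0.21 to 3.68, edgeR adjusted p = 0.136). Without ATUX8H it lay at 0.08 log2, and without ATUX9D at 2.73 log2, where it passed (edgeR adjusted p = 0.939 and 0.0309, range over 13 alternatives 0.00162 to 0.939). Without the third ATUX libraries PHGDH, PSAT1 and ALDH1L2 were at -0.33, -0.53 and 1.36 log2, and SHMT2, MTHFD2 and MTHFD2L at 0.39, 0.39 and -0.81 log2. PSPH, SHMT1, MTHFD1 and MTHFD1L were at 0.58, 0.56, 0.18 and -0.16 log2, and none of the 10 was called. The intervals of SHMT1 (-0.11 to 1.03), MTHFD1 (-0.08 to 0.53) and MTHFD1L (-0.56 to 0.27 log2) included 0.

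Mitochondrial and cytosolic partner transcripts were set against each other as ratios of RPKM for SHMT2 over SHMT1, MTHFD2 over MTHFD1 and MTHFD1L over MTHFD1. In these ratios every ATUX and SMAP library was lower than every Sorafenib library. SHMT2 over SHMT1 was 6.33 ± 1.56 with ATUX, 6.10 ± 1.51 with SMAP and 16.1 ± 1.08 with Sorafenib (library ranges 4.26 to 9.70, 4.202 to 8.213 and 14.4 to 18.6). MTHFD2 over MTHFD1 was 2.99 ± 0.158, 2.55 ± 0.359 and 12.4 ± 2.84 in the same order, with library ranges of 2.79 to 3.29, 2.15 to 2.99 and 8.795 to 16.04. MTHFD1L over MTHFD1 was 1.01 ± 0.0795 with ATUX, 1.32 ± 0.127 with SMAP and 2.78 ± 0.617 with Sorafenib. For this last ratio the ATUX libraries (0.943 to 1.13) also lay below the SMAP libraries (1.177 to 1.499). MTHFD1L itself was not called against Sorafenib, while MTHFD1 was called higher with ATUX and SMAP. The other ratios are between mitochondrial enzymes only. ALDH1L2 over MTHFD1L, the branch to carbon dioxide against the branch to formate, was 0.0296 ± 0.0285 with ATUX, 0.00716 ± 0.00282 with SMAP and 0.850 ± 0.0378 with Sorafenib. MTHFD2 over its isozyme MTHFD2L was 72.0 ± 10.8, 28.7 ± 4.71 and 96.99 ± 27.9, and here the ATUX and Sorafenib libraries overlapped. The ratios restate the levels given above as a description and were not tested, and their absolute size depends on the deposited gene lengths.

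**Figure D3:**
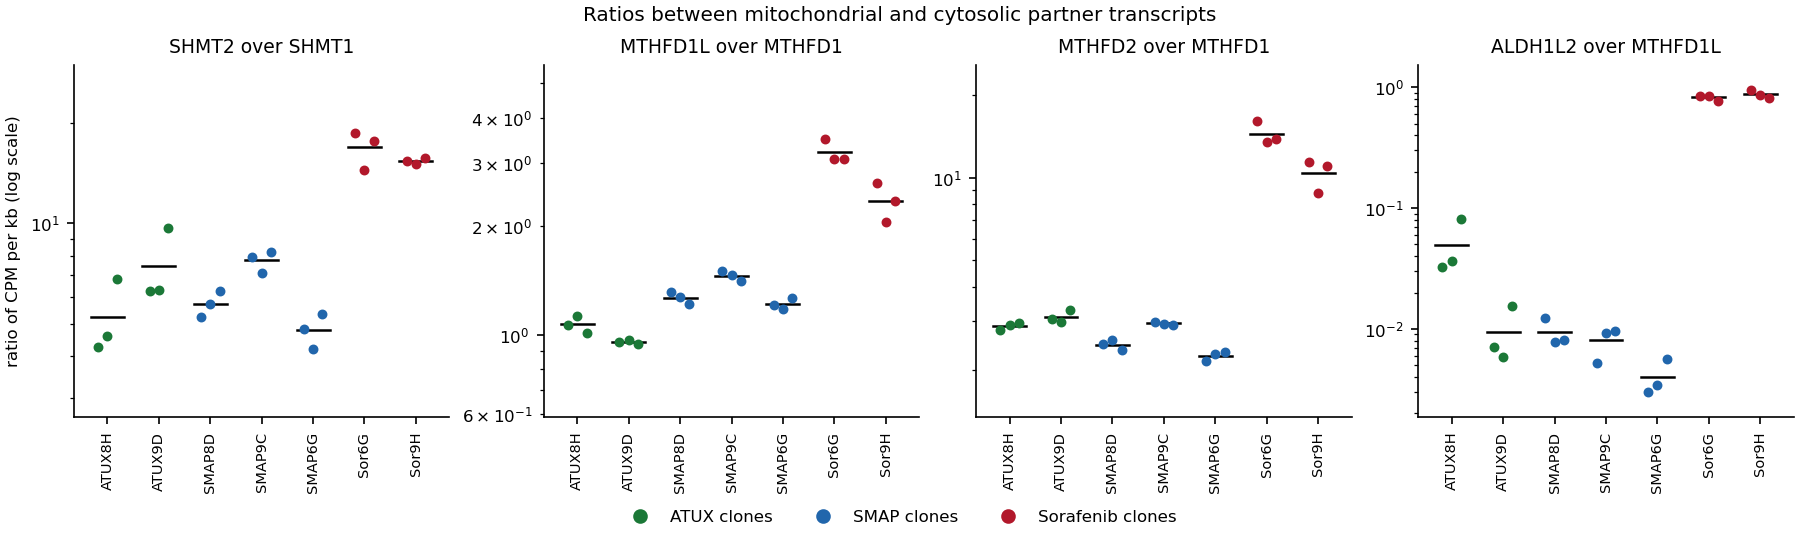
Ratio of RPKM between partner transcripts (log axis) in the 3 libraries (points) and their mean (bar) of each clone. The ATUX and SMAP clones lie below the Sorafenib clones in all 4 ratios, with SHMT2 over SHMT1 at 4.26 to 9.70, 4.202 to 8.213 and 14.4 to 18.6.

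Clones under the same drug also differed in these genes. Nothing in the labels says that the 3 libraries of a clone came from separate cultures, and the p-values between 2 clones therefore reflect library spread alone, possibly technical. ATUX8H and ATUX9D differed most in ALDH1L2 and PHGDH. PHGDH was at 34.9, 33.2 and 63.7 CPM in ATUX8H and at 7.31, 7.17 and 13.99 CPM in ATUX9D. Every ATUX8H library was above every ATUX9D library, by 2.22 ± 0.31 log2 (edgeR adjusted p = 2.89e-05). ALDH1L2 was at 5.25, 5.80 and 14.1 CPM in ATUX8H and at 1.01, 0.848 and 2.20 CPM in ATUX9D (2.65 ± 0.42 log2, edgeR adjusted p = 9.92e-05). Without the third library of ATUX8H these differences were 1.87 and 2.07 log2, and without that of ATUX9D 2.59 and 3.16 log2, all called.

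PSAT1 was higher in ATUX8H as well (110.6 ± 36.7 CPM, against 60.9 ± 15.4 CPM in ATUX9D, n = 3 each, 0.86 ± 0.20 log2, edgeR adjusted p = 0.00258). PSPH went the other way, at 51.4 ± 4.98 CPM in ATUX8H and 81.6 ± 13.1 CPM in ATUX9D (-0.67 ± 0.09 log2, edgeR adjusted p = 1.44e-06). SHMT1 and MTHFD1L were higher in ATUX8H and MTHFD2L was lower (0.44, 0.21 and -0.40 log2), so that 5 genes were higher and 2 lower. Of the 16504 genes tested, 23.1% were higher and 23% lower. The MTHFD2L call was lost without the second ATUX8H library, without the first or second of ATUX9D, or in a fit of the 2 clones only (edgeR adjusted p = 0.0809, 0.0633, 0.0842 and 0.11, range over 11 alternatives 0.0011 to 0.11). SHMT2, MTHFD1 and MTHFD2 differed by at most 0.07 log2 in size between these clones, with 95% intervals within -0.26 to 0.18.

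Among the SMAP clones, SMAP6G was the low one for the first serine enzymes. PHGDH was at 22.4, 36.6 and 37.0 CPM in SMAP8D and at 41.2, 28.3 and 29.8 CPM in SMAP9C, against 11.1, 13.9 and 16.4 CPM in SMAP6G. No SMAP6G library reached those of the other clones, which overlapped each other. PHGDH was 1.21 ± 0.30 log2 higher in SMAP8D and 1.26 ± 0.30 log2 higher in SMAP9C than in SMAP6G (edgeR adjusted p = 0.00588 and 0.00378). PSAT1 was 0.65 and 0.85 log2 higher in SMAP8D and SMAP9C than in SMAP6G (edgeR adjusted p = 0.0202 and 0.00331), and the call for SMAP8D was lost when any 1 of 4 libraries was left out (edgeR adjusted p = 0.0519 to 0.0794, range over 11 alternatives 3.97e-24 to 0.0794).

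SMAP9C in turn was lower in PSPH, SHMT1 and MTHFD1. PSPH averaged 54.4 ± 2.43 CPM in SMAP8D and 38.1 ± 0.664 CPM in SMAP9C (n = 3 each), a difference of 0.52 ± 0.09 log2, and SHMT1 averaged 16.95 ± 0.615 CPM in SMAP8D and 10.4 ± 0.37 CPM in SMAP9C, 0.70 ± 0.11 log2 (edgeR adjusted p = 9.06e-05 and 2.56e-05). Against SMAP6G, SMAP9C differed in PSPH, SHMT1 and MTHFD1 by -0.47, -0.50 and -0.25 log2, lower in SMAP9C (edgeR adjusted p = 0.00022, 0.00115 and 0.00176). In all, 4 genes were higher (PSPH, SHMT1, SHMT2 and MTHFD1) and 1 lower (MTHFD2L) in SMAP8D against SMAP9C, where 17.3% and 17.9% of all genes were higher and lower. SMAP8D against SMAP6G gave 5 higher (PHGDH, PSAT1, SHMT2, MTHFD2 and MTHFD1L), where the shares of all genes were 17.2% higher and 17.6% lower, and the count was 2 without the second SMAP8D or the first SMAP6G library and 3 without the third SMAP8D or the second SMAP6G library. SMAP9C against SMAP6G gave 3 higher (PHGDH, PSAT1 and MTHFD2L) and 3 lower, where the shares were 20% and 19.7%. The count for SMAP8D against SMAP9C was 3 without the second library of either clone.

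PHGDH did not pass between the Sorafenib clones, although their libraries did not overlap. It was at 390.9, 386.8 and 399.5 CPM in Sor6G and at 327.0, 299.6 and 354.3 CPM in Sor9H (0.26 log2, 95% interval -0.26 to 0.78, edgeR adjusted p = 0.447), and it passed without the filter and with the 2 clones only (edgeR adjusted p = 6.97e-05 and 0.000803, range over 11 alternatives 6.97e-05 to 0.655). The libraries of PSAT1 and ALDH1L2 did not overlap either, at 0.47 and 0.44 log2 (edgeR adjusted p = 0.073 and 0.123). PSAT1 passed when repeats were blocked (0.48 log2, edgeR adjusted p = 0.0372, range over 11 alternatives 2.64e-14 to 0.214). MTHFD2 was at 611.2, 536.5 and 570.6 CPM in Sor6G and 405.3, 350.6 and 422.1 CPM in Sor9H, without overlap (0.54 ± 0.07 log2, edgeR adjusted p = 4.45e-06). MTHFD1L averaged 131.8 ± 5.88 CPM in Sor6G and 91.2 ± 5.97 CPM in Sor9H (n = 3 each, 0.53 ± 0.06 log2, edgeR adjusted p = 5.54e-08), the largest difference of this gene among the 5 clone comparisons. PSPH was 0.33 ± 0.09 log2 higher in Sor6G (edgeR adjusted p = 0.00508). These 3 were the genes called of the 10, all higher, where 16% of all genes were higher and 17.7% lower.

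**Figure D4:**
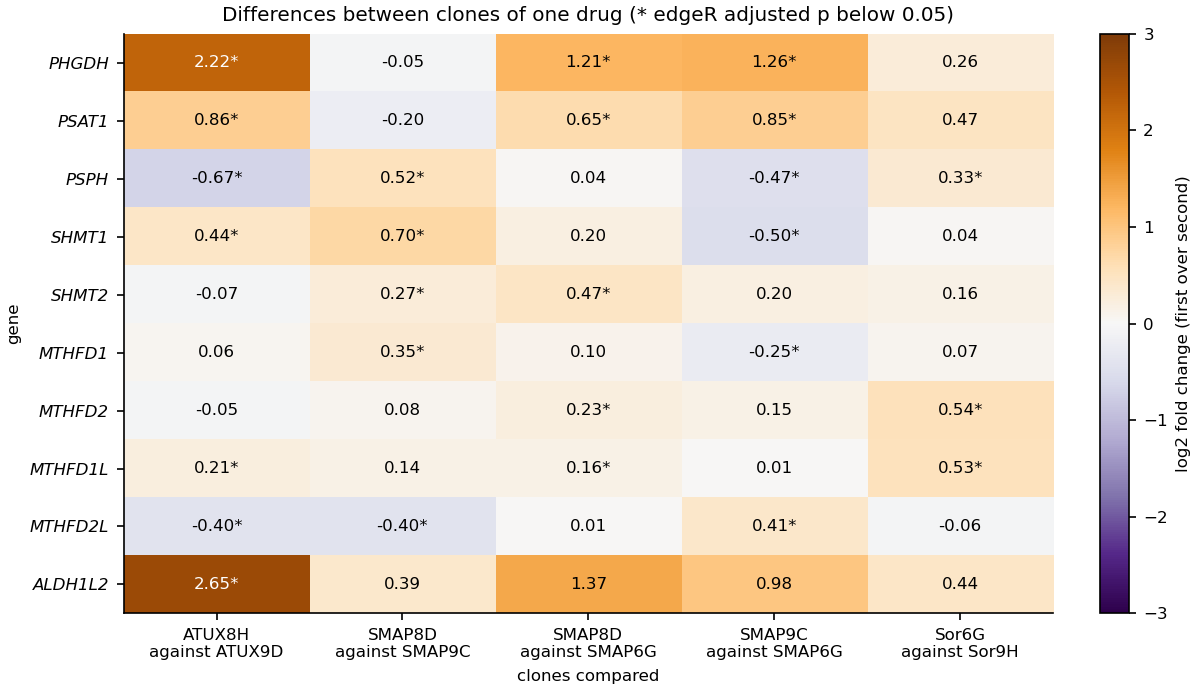
Log2 fold change (colour and number) of the 10 genes in the 5 comparisons between clones of one drug, from 3 libraries per clone, with asterisks where edgeR passed. PHGDH and ALDH1L2 carry the largest values for ATUX8H against ATUX9D (2.22 and 2.65), and MTHFD1 stays between -0.25 and 0.35 throughout.

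When all 7 clones were ordered by mean level, the 2 Sorafenib clones held the top for PHGDH, PSAT1, SHMT2, MTHFD2 and ALDH1L2, and the bottom for MTHFD1. Below them the order by drug did not hold for PHGDH: ATUX8H (43.95 CPM) was followed by SMAP9C (33.1), SMAP8D (31.99), SMAP6G (13.8) and ATUX9D (9.49 CPM). Of these neighbours, only SMAP8D and SMAP6G had libraries that did not overlap. For ALDH1L2, ATUX8H (8.39 CPM) stood apart from SMAP8D (1.74 CPM), while SMAP8D, ATUX9D (1.35), SMAP9C (1.34) and SMAP6G (0.673 CPM) each overlapped with the next. SHMT2 ran from ATUX9D (77.7 CPM) over ATUX8H (74.1), SMAP8D (64.6) and SMAP9C (53.6) to SMAP6G (46.7 CPM), and MTHFD2 kept the same order of clones.

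Across the 21 libraries PHGDH and PSAT1 moved in near parallel (Pearson r = 0.988 of log2 CPM), as did SHMT2 and MTHFD2 (r = 0.969), and MTHFD1 ran against PSAT1 (r = -0.901). PSPH had an r of -0.06 with PHGDH. The libraries of a clone and the clones of a drug share their source, so these values describe the 7 clones and carry no test. Among 11032 genes averaging 5 CPM or more, those most like PHGDH were PCK2, mitochondrial phosphoenolpyruvate carboxykinase (r = 0.990), PSAT1 and SESN2, a stress-induced regulator of mTORC1 (r = 0.982). PCK2 averaged 17.1 CPM under ATUX, 18.3 CPM under SMAP and 89.4 CPM under Sorafenib. PSAT1 was most like PCK2 (0.993), SESN2 (0.990) and ISCU, an iron-sulphur cluster scaffold (0.988). Most like both SHMT2 and MTHFD2 were CARS, a cysteinyl-tRNA synthetase (0.982 with each), and EIF4EBP1, an inhibitor of cap-dependent translation (0.979 and 0.981), followed by PPP1R15A for SHMT2 (0.979) and TNFRSF10B for MTHFD2 (0.977). For ALDH1L2 they were SPOCD1 (0.985), TRIOBP (0.984) and OSCAR (0.982), of which SPOCD1 averaged 3.76 CPM under ATUX, 1.71 CPM under SMAP and 67.5 CPM under Sorafenib.

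The ATF4 and amino acid response genes were mostly lower in the ATUX and SMAP clones than in the Sorafenib clones. Of 14 such genes, 1 was higher and 11 were lower for ATUX against Sorafenib (median log2 -1.66, against 0.01 for all genes), and 10 were lower for SMAP against Sorafenib with 4 not called (median -1.62, against 0.01 for all genes). The shares of all genes that were lower were 12.5% and 17.7%. ATF4 itself averaged 196.7 CPM under ATUX, 157.2 CPM under SMAP and 346.6 CPM under Sorafenib (log2 -0.81 ± 0.15 and -1.15 ± 0.13, edgeR adjusted p = 0.012 and 0.00209). It was chosen after its values were seen, as was ATF5, the gene that was higher for ATUX against Sorafenib (0.44 ± 0.10 log2) and lower for SMAP against Sorafenib (-0.37 ± 0.09 log2). TRIB3, a pseudokinase that restrains ATF4, was lower with ATUX (log2 -3.19 ± 0.58) and with SMAP (log2 -2.78 ± 0.49) (edgeR adjusted p = 0.0127 and 0.00791), at 35.98 ± 7.21 CPM in SMAP clones and 243.9 ± 70.3 CPM in Sorafenib clones. DDIT4, an inhibitor of mTORC1, was at 49.2 ± 28.5 CPM under ATUX and 489.4 ± 203.6 CPM under Sorafenib (log2 -3.32 ± 0.50), and SLC7A11, the cystine importer, at 45.3 ± 13.9 CPM and 254.4 ± 16.9 CPM (log2 -2.50 ± 0.28, edgeR adjusted p = 0.00771 and 0.00377). CHAC1, which degrades glutathione, was lower with ATUX (log2 -2.57 ± 0.75, edgeR adjusted p = 0.0481). Neither DDIT4 nor CHAC1 was called for SMAP against Sorafenib (edgeR adjusted p = 0.116 and 0.0738), and their libraries overlapped there. Asparagine synthetase (ASNS) was at 123.3 ± 15.2 CPM under SMAP and 587.9 ± 98.9 CPM under Sorafenib (log2 -2.27 ± 0.21), and SESN2 at 21.95 ± 4.17 CPM and 113.9 ± 38.3 CPM (log2 -2.40 ± 0.35, edgeR adjusted p = 0.0012 and 0.00422). CTH, cystathionine gamma-lyase, which spends serine carbon on cysteine and counted in 2 lists, was at 2.24 ± 0.575 CPM under SMAP and 10.1 ± 4.92 CPM under Sorafenib (log2 -2.18 ± 0.43). Between ATUX and SMAP 1 of the 14 was higher, ATF5 (0.81 ± 0.09 log2), and 1 lower, DDIT4 (-2.35 ± 0.46 log2, edgeR adjusted p = 0.00889 and 0.0293), with a median of -0.09.

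The G1 to S and replication genes ran the other way, as MTHFD1 did. Of 19 genes, 18 were higher for ATUX against Sorafenib and 1 was not called (median log2 1.498, against 0.01 for all genes), and 17 were higher for SMAP against Sorafenib with 2 not called (median 1.29). The shares of all genes that were higher were 13.3% and 16.8%. CDC6, a replication licensing factor, was at 65.9 ± 6.57 CPM under ATUX, 44.1 ± 8.45 CPM under SMAP and 12.09 ± 1.602 CPM under Sorafenib (log2 2.46 and 1.86, edgeR adjusted p = 0.0026 and 0.00198). Cyclin E2 (CCNE2) was at 46.1 ± 15.0 CPM, 19.0 ± 7.33 CPM and 5.52 ± 0.167 CPM in the same drugs (log2 3.07 and 1.77, edgeR adjusted p = 0.00584 and 0.0144). RRM2, the small subunit of ribonucleotide reductase, and thymidine kinase TK1 were higher with ATUX than with Sorafenib by 2.42 and 1.87 log2 (edgeR adjusted p = 0.00529 and 0.00481). For ATUX against SMAP 3 were higher (RRM2, E2F1 and TK1, at 1.14, 0.99 and 0.85 log2) and 1 lower (POLA1, -1.30 log2), with a median of 0.25. The part of these genes in the differences of the 10 enzymes was not tested.

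Of 15 genes of the folate cycle and uptake, 1 was higher and 3 were lower for ATUX against Sorafenib, 5 and 4 for SMAP against Sorafenib, and 1 and 2 for ATUX against SMAP (medians -0.06, 0.32 and -0.09). Beside these and the following counts, 13.3% of all genes were higher and 12.5% lower for ATUX against Sorafenib. The shares were 16.8% and 17.7% for SMAP against Sorafenib, and 5.27% and 5.06% for ATUX against SMAP. Of 12 purine synthesis genes, 4 were higher for ATUX against Sorafenib and 8 not called, and 5 were higher and 1 lower for SMAP against Sorafenib (medians 0.43 and 0.46). In ATUX against SMAP clones IMPDH1, the first enzyme from IMP towards guanine nucleotides, was higher (98.6 ± 7.32 and 46.3 ± 12.5 CPM, log2 1.12 ± 0.23, edgeR adjusted p = 0.0336) and the phosphoribosyl pyrophosphate synthetase PRPS2 was lower (24.4 ± 3.26 and 54.8 ± 12.5 CPM, log2 -1.14 ± 0.20, edgeR adjusted p = 0.0214). Of 10 tested genes of glycine cleavage and serine use, 1 was higher and 2 were lower for ATUX against Sorafenib and 2 and 2 for SMAP against Sorafenib. Among 8 tested methionine cycle genes the counts were 2 and 1, with 2 higher and 6 not called for SMAP against Sorafenib. NNMT, which methylates nicotinamide at the expense of S-adenosylmethionine, was near 0 in the ATUX clones (0.07 ± 0.00488 CPM) and at 10.02 ± 4.76 CPM in the SMAP clones (edgeR adjusted p = 0.00659). Of 10 tested regulators of these enzymes, 1 was higher and 2 lower for ATUX against Sorafenib and 3 and 1 for SMAP against Sorafenib, where the lipid regulator SREBF1 was at 236.6 ± 95.6 CPM under SMAP and 68.9 ± 0.984 CPM under Sorafenib (log2 1.77 ± 0.41, edgeR adjusted p = 0.018). In ATUX against SMAP clones 1 gene of each of these last 3 lists passed, lower in each case.

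**Figure D5:**
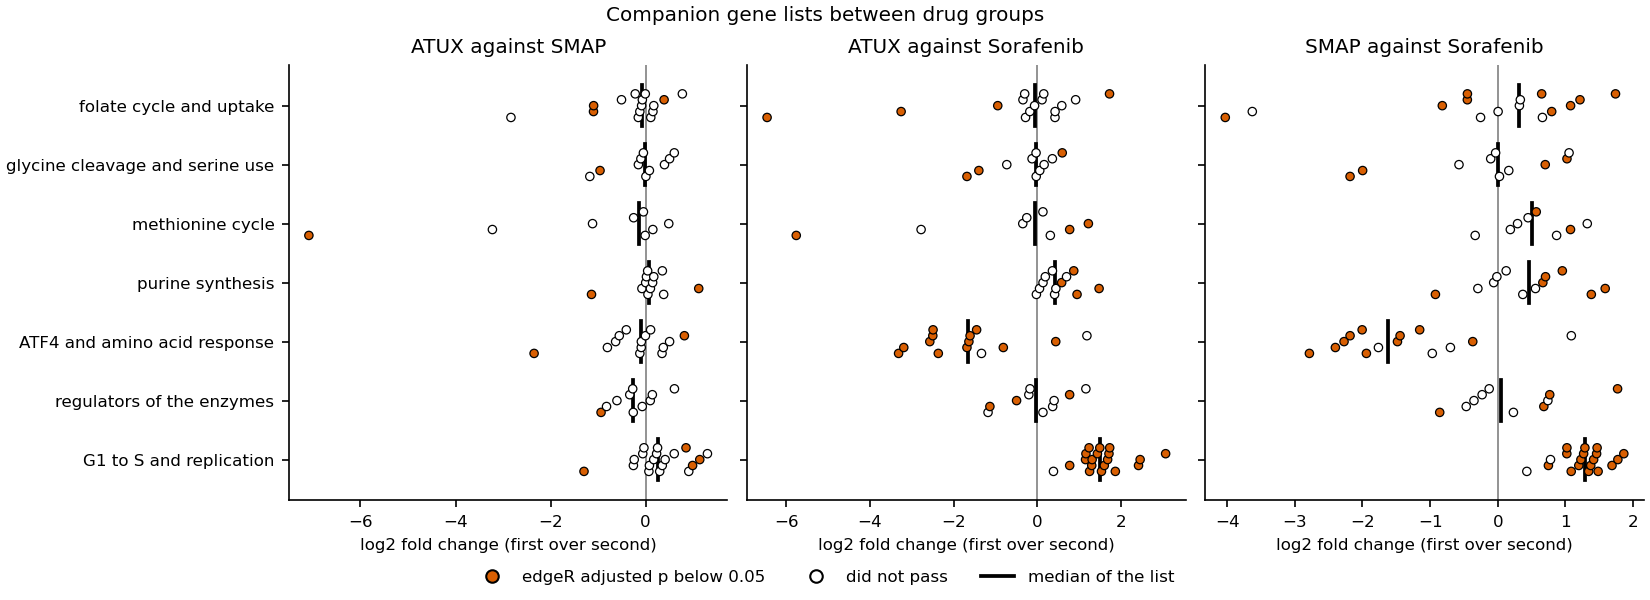
Log2 fold change (x axis) of the genes of 7 companion lists in the 3 drug comparisons, with a bar at each list's median and filled points where edgeR passed. The ATF4 and amino acid response genes lie mostly on the left in both comparisons with Sorafenib (medians -1.66 and -1.62) and the G1 to S and replication genes on the right (1.498 and 1.287).

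Genes within 5 Mb of an enzyme gene gave medians far smaller than the PHGDH, PSAT1 and ALDH1L2 differences. The 44 tested genes around PHGDH had a median log2 of -0.22 for ATUX against Sorafenib and 0.07 for SMAP against Sorafenib, the 19 around PSAT1 0.41 and 0.30, and the 83 around ALDH1L2 0.10 and -0.01. Around MTHFD1 the 70 neighbours had medians of 0.18 and 0.10, around MTHFD2 the 88 neighbours 0.03 and -0.10, and around SHMT2 the 170 neighbours -0.17 and -0.28, on the same side as SHMT2. Around SHMT1 the 101 neighbours had medians of -0.55 and -0.40, opposite in sign to SHMT1. Of these, 34 and 38 were lower and 2 and 14 higher, where 12.5% and 17.7% of all genes were lower and 13.3% and 16.8% higher. Between clones, of 15 genes around PSPH, 10 were higher in SMAP8D than in SMAP9C and 8 were lower in SMAP9C than in SMAP6G (medians 0.30 and -0.26), and of 149 around SHMT2, 48 were higher and 13 lower in SMAP8D than in SMAP6G. Neighbours also differed where the enzyme gene was not called. Around SHMT2, 69 of 149 were higher and 9 lower in SMAP9C than in SMAP6G. Around MTHFD1, 36 of 63 were higher and 2 lower in ATUX8H than in ATUX9D. Around ALDH1L2, 42 and 44 of 77 were higher in SMAP8D and in SMAP9C than in SMAP6G, and 4 and 1 lower. Of all genes, 17.3% were higher in SMAP8D than in SMAP9C and 17.2% than in SMAP6G. In SMAP9C against SMAP6G 20% were higher and 19.7% lower, and in ATUX8H against ATUX9D 23.1% were higher. Other regions and clone comparisons are not listed. The part of neighbours in the results was not tested. Markers of other cells were scarce: endothelial and acinar markers summed to at most 1.44 CPM per library and immune markers to at most 3.28 CPM, with CD3E at 0 in each drug group, PRSS1 at 0 with SMAP and with Sorafenib, CPA1 at 0 with SMAP and PTF1A at 0 with ATUX and with Sorafenib. Of 6 fibroblast markers, 2 exceeded 1 CPM under ATUX, 4 with SMAP and 3 with Sorafenib, summing to 21.2 to 68.5, 50.7 to 204.5 and 51.6 to 186.2 CPM. Their part in the results was not tested.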

How the data were processed

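RNA-seq covered 21 libraries of 7 Panc-1 clones. Libraries were made from 500 ng of total RNA with TruSeq Stranded mRNA reagents after poly-A selection, per the labels' protocols. The deposited values are raw read counts per gene, whole numbers without normalization, beside gene positions, lengths and a GC percent that the authors also deposited. The submitters' processing notes name STAR 2.5.2b, Bowtie2 2.3.3.1, featureCounts 1.5.3, cutadapt 1.15 and SAMtools 1.5, and GRCh38 as the build. Step order, annotation release, strandedness of counting and multimapping rules are not stated, that is, not given in the sources used here. The table held 0 columns of other samples. Even the most alike libraries differed by more than counting noise (chi-square per degree of freedom at least 2.26).

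Drugs were compared on 7 sums, 1 per clone, because the drug preceded cloning: edgeR 4.0.16 (R 4.3.3), TMM, filterByExpr, robust quasi-likelihood, drug as the factor, 18613 genes. Clones were compared on all 21 libraries with clone as the factor, 16504 genes. P-values between drugs measure the spread between picked clones. Each SE came from the quasi-likelihood F. The fits were also run on simulated counts with known changes. These had a fixed spread for all genes and no shifted libraries, so they do not measure performance on these data. Alternatives were DESeq2 1.42.0, its size factors in edgeR, no filter, libraries in place of sums, and the repeat number as a block. Others left out each clone, each library or the third ATUX libraries, or kept only the 2 clones compared. Same-numbered libraries deviated together in ATUX8H and ATUX9D (r of 0.26 to 0.37) and in Sor6G and Sor9H (0.22 to 0.31). The labels give no such pairing. All 120 companion and marker names were found, 119 by name. Companion genes named by rule are the called genes with the largest change, up to 4 per drug comparison and direction, whose libraries did not overlap and whose mean reached 5 CPM in the higher drug. A gene that this rule picked is not reported here. The 3 genes most like a member were ranked by Pearson r. The members and lists were chosen with earlier results of these data known.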

Additional observations from a re-analysis of the deposited data

How the results depend on the processing

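No call of the 10 genes changed direction. Over 940 values under the alternatives, 856 stayed on the same side of the threshold, 32 lost the call and 52 gained one. Among the 856 were 19 uncalled values that changed sign. In ATUX against SMAP clones the count of called genes was 0, against 1 with DESeq2, 7 with the 21 libraries in place of sums, 7 with these and the replicate block, and 0 to 1 when each clone was left out. Libraries of a clone are not independent, and that fit takes the spread between them. For ATUX against Sorafenib the count was 6, and 3 to 6 with a clone left out, the lowest without Sor6G, 4 without the filter and 9 with the 21 libraries. For SMAP against Sorafenib it was 6, 6 with any clone left out and 7 with the 21 libraries. For SMAP8D against SMAP6G the 5 calls became 8 with the 2 clones only and 2 to 5 with a library left out. For SMAP8D against SMAP9C 5 became 7 with the 2 clones only and 3 to 6 with a library left out. For Sor6G against Sor9H 3 became 7 without the filter and 7 with the 2 clones only. Over all genes, the fits of 2 clones only called 7379 of 14889 for SMAP8D against SMAP6G and 7345 of 14981 for SMAP8D against SMAP9C. For Sor6G against Sor9H they called 6191 of 14781, and 5342 of 32697 passed without the filter. The fit of 21 libraries called 8375 of 15671 genes for ATUX against SMAP, 10378 for ATUX against Sorafenib and 10972 for SMAP against Sorafenib. With the replicate block it called 8152 for ATUX against SMAP. Where a clone was left out, the lone clone of that drug was assumed to vary like the other drugs' clones. Counts over all genes ran from 560 to 8375 for ATUX against SMAP, where 1921 were called, from 1430 to 10378 for ATUX against Sorafenib (4810) and from 2761 to 10972 for SMAP against Sorafenib (6428). The labels pair no libraries between clones. Over all 63 same-numbered pairs r ran from -0.23 to 0.37 (median 0.02), over 0.1 in 23. The third libraries of ATUX9D and Sor9H, from different drugs, had an r of 0.28, above 0.22 for the second libraries of Sor6G and Sor9H. Pairs with different numbers were not taken, so a true pairing cannot be told from these values. With the repeat number as a replicate block, clone comparisons gave 7, 6, 5, 7 and 4 called genes in the order ATUX8H against ATUX9D, SMAP8D against SMAP9C, SMAP8D against SMAP6G, SMAP9C against SMAP6G and Sor6G against Sor9H, where 7, 5, 5, 6 and 3 were called without it. In ATUX8H against ATUX9D and in Sor6G against Sor9H the block changed no call but that of PSAT1 in the latter.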
